A study of Homo sapiens with 8 samples.

Results

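Histone genes were followed in 2 human T-cell acute lymphoblastic leukaemia cell lines, MOLT-4 and DND-41, after 8 h with ACBI-1 at 100 nM or with its solvent DMSO. All rows whose symbol starts with HIST1H, HIST2H, HIST3H or HIST4H were taken, those with a pseudogene ending were dropped, and a row was kept with at least 10 counts in 2 or more of the 8 libraries. This left 38 of the 63677 genes in the files. Of 106 histone-named rows, 16 had a pseudogene ending, 52 of the other 90 were under the count minimum, and 27 of these 52 had 0 counts in all 8 libraries. ACBI-1 is a small molecule that brings the VHL ubiquitin ligase to the bromodomains of SMARCA2, SMARCA4 and PBRM1, so that these proteins are degraded. Chromatin remodelling complexes of the BAF family use SMARCA2 or SMARCA4 as their motor. The 4 groups were MOLT-4 with ACBI-1, MOLT-4 with DMSO, DND-41 with ACBI-1 and DND-41 with DMSO, each with 2 libraries of total RNA from cells grown in the same serum-containing medium. Nothing in the labels ties the libraries of a group to separate cultures, so a p-value here reflects library-to-library spread that may be purely technical.

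Core histones H2A, H2B, H3 and H4 form the protein spool of the nucleosome, and linker histone H1 binds where the DNA enters and leaves it. The genes of the HIST clusters supply most histone protein during S phase, when DNA is copied. Their main mRNAs carry no poly(A) tail. They end after a short hairpin, the histone 3′ stem-loop, which the stem-loop binding protein SLBP holds, and some of the genes also give polyadenylated transcripts. A separate group of histone genes, such as H3F3B and H2AFZ, lies outside the clusters and is expressed through the whole cell cycle with polyadenylated mRNA. Methods that select poly(A) RNA lose the tailless mRNAs; whether these libraries were selected in that way is not given in the sources used here, and its part in the low counts was not tested.

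By class the 38 genes were 3 for H1, 7 for H2A, 15 for H2B, 8 for H3 and 5 for H4. By cluster 30 were HIST1 genes on chromosome 6, 5 were HIST2 and 2 were HIST3 genes on chromosome 1, and 1 was HIST4H4 on chromosome 12. In GENCODE 29 on GRCh38 the 30 HIST1 genes lie within chr6:26031650-27893843, the HIST2 genes within chr1:149782689-149887364 and the HIST3 genes within chr1:228456979-228464626. The deposited counts were made on hg19, so these coordinates locate the genes but are not those of the counting. GENCODE 29 lists 3 of the 38, HIST2H2BC, HIST2H2BD and HIST3H2BA, as pseudogene types although their symbols lack the ending. At the edge of the count minimum, HIST1H1B, a linker histone gene, had 10 and 8 counts in ACBI-1 and 7 and 10 in DMSO libraries of MOLT-4, and 3 and 2 in ACBI-1 and 8 and 5 in DMSO libraries of DND-41. Just outside it, HIST1H3E had 3 and 2 against 2 and 6 counts in MOLT-4 (ACBI-1 against DMSO) and 5 and 11 against 9 and 2 in DND-41.

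Library totals ran from 19860759 to 20239888 counts, and 3 counts in a library equal 0.137 to 0.165 CPM, the counts scaled by effective library size. The log2 CPM of replicates correlated across genes with Pearson's r of 0.9954 to 0.9975. RNA of the degraded proteins is no check of the treatment, and SMARCA4 RNA was higher with ACBI-1 in both lines, by 0.19 ± 0.06 (log2 ± SE) in MOLT-4 and by 0.34 ± 0.06 in DND-41. PBRM1 RNA fell by 0.16 ± 0.06 in MOLT-4 (adjusted p = 0.0288, edgeR) and was at 0.06 ± 0.07 in DND-41, and SMARCA2 RNA was at 0.14 ± 0.08 in MOLT-4 and fell by 0.19 ± 0.07 in DND-41 (adjusted p = 0.0433, edgeR). The T-lineage markers CD3D, CD3E and CD7 had counts in every library, and 7 such markers summed to 2112 to 2284 CPM in MOLT-4 and to 4270 to 5006 CPM in DND-41 libraries, where PTCRA was at or near 0. The line oncogenes matched the labels, with TAL1 at 41.3 and 41.6 CPM in ACBI-1 and 56.1 and 55.5 CPM in DMSO libraries of MOLT-4 and TLX3 at 92.8 and 88.4 CPM in ACBI-1 and 319 and 300.4 CPM in DMSO libraries of DND-41. Of 12 markers of other cell types, 5 to 9 read 0 in a library, MS4A1, HBB and EPCAM at or near 0 throughout. COL1A1, a fibroblast collagen gene, differed between replicates of MOLT-4, at 0.0 and 11.4 CPM with ACBI-1 and 2.2 and 55.4 CPM with DMSO, so that replicate 2 was the higher of each group; its part in the histone results was not tested. The 12 markers summed to 4.34 and 18.6 CPM with ACBI-1 and 10.8 and 75.3 CPM with DMSO in MOLT-4. In DND-41 they summed to 936 and 979 CPM with ACBI-1 and 1569 and 1587 CPM with DMSO, nearly all from CD79A.

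Histone transcripts were a very small part of all libraries. The 38 genes together took 0.00429% ± 0.000177 of counts with ACBI-1 and 0.00463% ± 0.000127 with DMSO in MOLT-4 (SD, n = 2 libraries each), and 0.00604% ± 0.000654 with ACBI-1 and 0.00638% ± 0.00071 with DMSO in DND-41. HIST1H2BK, an H2B gene, held 29.4% of all counts of the 38 genes over the 8 libraries. HIST1H1C, a linker histone gene, followed with 7.42%, and each of the other 36 held less than that. Counts are not divided by transcript length and do not rank the genes by RNA molecules. Of the 38 genes, 31 had a mean of fewer than 30 counts per library, as the plot of counts in each library shows.

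**Figure D1:**
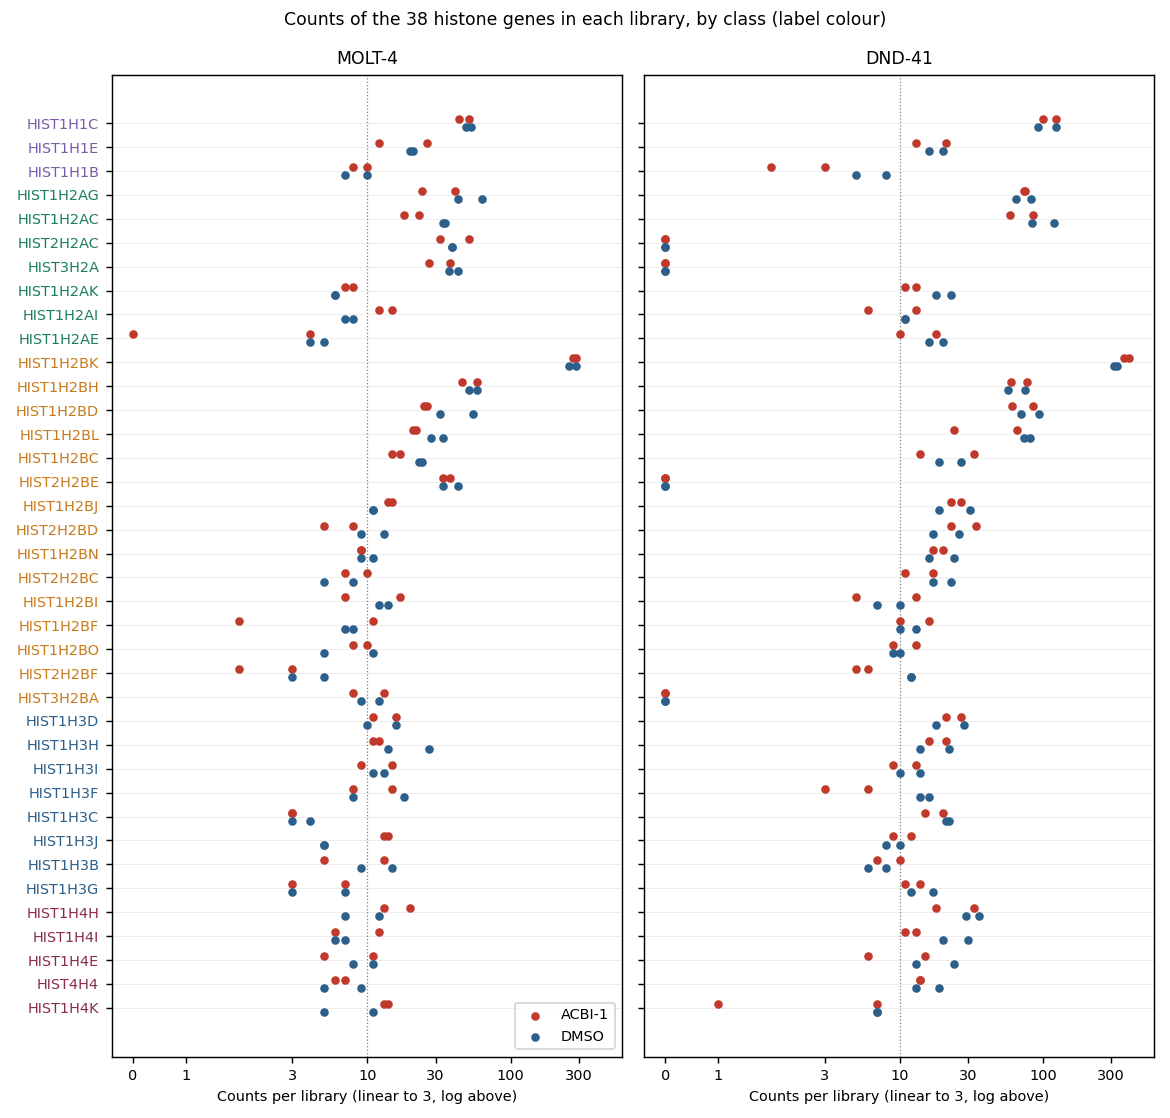
Counts of the 38 histone genes in each library, MOLT-4 on the left and DND-41 on the right, on an axis that is linear to 3 and logarithmic above. Rows are grouped by class through label colour, ACBI-1 libraries are red and DMSO libraries blue, and the dotted line marks 10 counts; HIST1H2BK lies at 257 to 400 counts while HIST2H2AC, HIST3H2A, HIST2H2BE and HIST3H2BA lie at 0 in all DND-41 libraries.

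The annotated 3′ ends were searched for the hairpin. In GENCODE 29, 22 of the 38 genes have a transcript that contains the histone 3′ stem-loop, and 16 have none in an annotated transcript. Among 19702 protein-coding genes, histone genes included, 83 (0.421%) have it. The sets differ, since the 22 include HIST2H2BC, HIST2H2BD and HIST3H2BA, which are listed as pseudogene types. The stem-loop was found in 5 H2A, 11 H2B, 2 H3 and 4 H4 genes. Some of the 16 end short in GENCODE 29. HIST1H1C and HIST1H2BK, on the minus strand, end there at chr6:26055787 and chr6:27146418, and in RefSeq at chr6:26055740 and chr6:27138293. A hairpin past an annotated end could not be found, so such genes may still carry it. In 17 of the 22, the transcript goes on for at least 100 bases past the stem-loop, which is a longer form than the tailless mRNA. HIST1H2AC, HIST2H2BE and HIST3H2A share the same hairpin, which is the most frequent among these genes (11 of 22), whereas HIST1H4H and HIST1H4I have stems of another sequence. They are printed from the GRCh38 transcripts, 5′ to 3′, with the paired arms of the stem in capitals, because they show both of these stems and belong to genes described in the results. They lie at chr6:26124664-26124689 (plus strand) for HIST1H2AC, chr1:149886183-149886208 (minus strand) for HIST2H2BE, chr1:228457364-228457389 (minus strand) for HIST3H2A, chr6:26285126-26285151 (minus strand) for HIST1H4H and chr6:27139649-27139674 (plus strand) for HIST1H4I.
HIST1H2AC: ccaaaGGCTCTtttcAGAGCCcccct
HIST2H2BE: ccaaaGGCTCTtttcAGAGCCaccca
HIST3H2A: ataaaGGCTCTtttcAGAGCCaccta
HIST1H4H: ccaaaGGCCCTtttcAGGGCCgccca
HIST1H4I: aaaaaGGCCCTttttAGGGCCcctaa

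In MOLT-4 ACBI-1 moved few histone genes past the threshold. In bulk RNA a smaller share of S-phase cells and less histone RNA per cell cannot be told apart. Of 26 genes that passed the filter on low counts, 1 was higher and 0 were lower at an adjusted p under 0.05 (edgeR quasi-likelihood test, Benjamini-Hochberg over all genes). Over all genes tested in MOLT-4, 45.1% of 14239 were called, 20.7% higher and 24.4% lower. The median log2 fold change was -0.02 over the 26 genes and 0.00 over all genes, and 5 of the 26 had an unadjusted p under 0.05. Expression level bears on these shares: among all genes 22.1% were called under 1 CPM, 32.8% from 1 to under 5 CPM and 52.0% at 5 CPM or more, and the histone genes called in these ranges were 1 of 14, 0 of 11 and 0 of 1. The low counts limit what could be seen, since the SE of the log2 fold change ran from 0.11 for HIST1H2BK to 0.49, with a median of 0.40. With DESeq2, 0 of the 26 were called and 0 had an unadjusted p under 0.05. Of all 14239 genes, DESeq2 called 1962 higher and 2524 lower.

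In DND-41 few histone genes were called. Of 29 genes that passed the filter, 0 were higher and 2 were lower, against 20.0% higher and 23.2% lower among 14008 genes tested (43.2% called in all). The median log2 fold change was -0.19, against 0.01 over all genes, and 20 of the 29 values were below 0. These values come from the same 4 libraries, so the genes are not replicates. Both ACBI-1 libraries lay below both DMSO libraries for 7 of the 29, against 36.2% of all genes tested. The summed level of the 38 genes overlapped, at 62.3 and 50.6 CPM with ACBI-1 and 65.4 and 56.7 CPM with DMSO. By level the histone genes called were 1 of 13 under 1 CPM, 1 of 14 from 1 to under 5 CPM and 0 of 2 at 5 CPM or more, where 15.1%, 28.2% and 51.0% of all genes were called. At an unadjusted p under 0.05 there were 6 of 29 with edgeR. With DESeq2, 0 were called, 5 of the 29 having no adjusted p, and 1 had an unadjusted p under 0.05. Of all 14008 genes, DESeq2 called 1871 higher and 2460 lower. In the authors' deposited tables, 31 histone genes had an adjusted p in MOLT-4 and 20 had one in DND-41. Of these, 0 were under 0.05 in either line, and the share of all genes under 0.05 there is not given here.

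**Figure D2:**
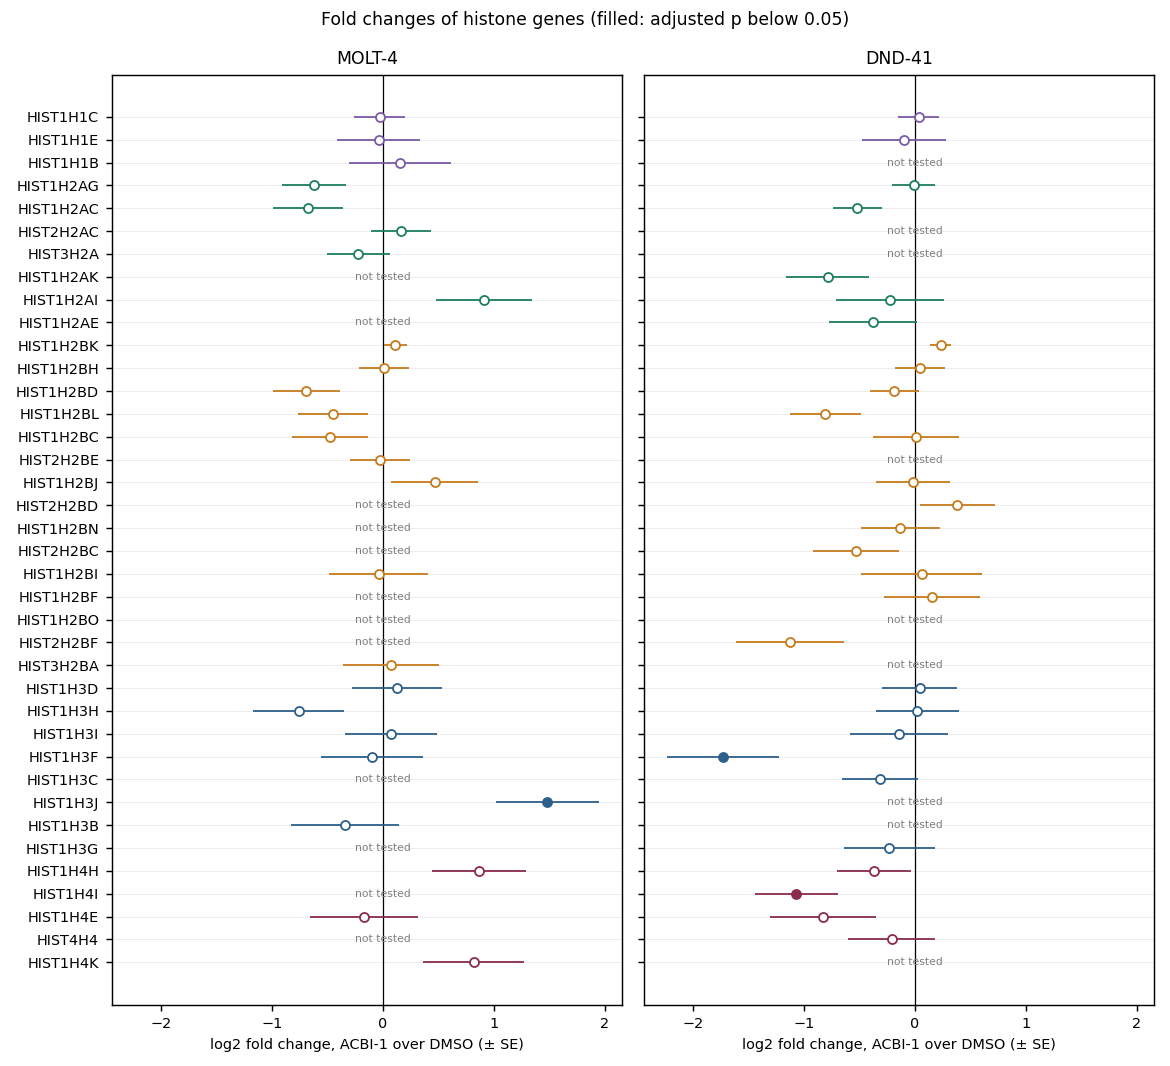
Log2 fold changes of ACBI-1 over DMSO for each histone gene with its standard error (2 libraries against 2), MOLT-4 on the left and DND-41 on the right, in the row order of the plot of counts. Filled points passed the threshold, which were HIST1H3J in MOLT-4 and HIST1H3F and HIST1H4I in DND-41, and rows marked as not tested were under the filter in that line.

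No clustered linker histone gene was called in either line, of 3 tested in MOLT-4 and 2 in DND-41. HIST1H1C had 51 and 44 counts with ACBI-1 and 49 and 53 with DMSO in MOLT-4, and 123 and 100 with ACBI-1 and 123 and 92 with DMSO in DND-41. The groups overlapped in both lines, and the log2 fold change was -0.03 ± 0.23 in MOLT-4 and 0.03 ± 0.18 in DND-41. HIST1H1E had 26 and 12 against 21 and 20 counts in MOLT-4 (ACBI-1 against DMSO) and 21 and 13 against 20 and 16 in DND-41. Its log2 fold changes were -0.04 ± 0.38 in MOLT-4 and -0.10 ± 0.38 in DND-41, and the groups overlapped in both lines.

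Among clustered H2A genes 0 of the 5 tested in each line were called. HIST1H2AC had 18 and 23 counts with ACBI-1 and 35 and 34 with DMSO in MOLT-4, where the groups did not overlap, a log2 fold change of -0.67 ± 0.31 (adjusted p = 0.0907, edgeR). In DND-41 it had 85 and 59 counts with ACBI-1 and 120 and 84 with DMSO, which overlapped. Its log2 fold change there was -0.52 ± 0.22 (adjusted p = 0.0743, edgeR). With a replicate block in the fit it was called (-0.52, adjusted p = 0.0151, edgeR). Leaving out DND-41 ACBI-1 replicate 1 or DND-41 DMSO replicate 2 brought it under the threshold, with adjusted p = 0.000766 and 0.00735 (edgeR). HIST1H2AG had 24 and 41 counts with ACBI-1 and 43 and 63 with DMSO in MOLT-4, where the CPM of the groups overlapped. Its log2 fold change there was -0.62 ± 0.29 (adjusted p = 0.0873, edgeR), and the replicate block called it (-0.62, adjusted p = 0.0316, edgeR). In DND-41 it had 75 and 74 against 83 and 65 counts, with -0.01 ± 0.19. Its MOLT-4 value passed the threshold without MOLT-4 ACBI-1 replicate 2 (-1.08, adjusted p = 0.0139), without MOLT-4 DMSO replicate 1 (-0.83, adjusted p = 0.0181) and when scaled by library size alone (-0.71, adjusted p = 0.0375, all edgeR). Summed over the 7 H2A genes the level was 8.11 ± 0.684 CPM with ACBI-1 and 9.42 ± 0.103 CPM with DMSO in MOLT-4, and 8.53 ± 1.07 CPM with ACBI-1 and 10.8 ± 1.38 CPM with DMSO in DND-41 (SD, n = 2 libraries each), so that in both lines the ACBI-1 libraries lay below the DMSO libraries.

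Among H2B genes HIST1H2BK was the best measured. It had 286 and 272 counts with ACBI-1 and 286 and 257 with DMSO in MOLT-4, which overlapped, a log2 fold change of 0.11 ± 0.11 (adjusted p = 0.406, edgeR). In DND-41 it had 400 and 367 counts with ACBI-1 and 329 and 316 with DMSO, both ACBI-1 libraries being higher, a log2 fold change of 0.23 ± 0.10 (adjusted p = 0.0712, edgeR); without DND-41 ACBI-1 replicate 2 it was 0.32 (adjusted p = 0.00755, edgeR). The replicate block called it in DND-41, at 0.23 (adjusted p = 0.043, edgeR). HIST1H2BK was the sole histone gene in DND-41 with both ACBI-1 libraries above both DMSO libraries, a pattern seen in 33.4% of all genes tested there. The difference between the lines was -0.10 ± 0.15 (MOLT-4 minus DND-41). HIST1H2BH had 58 and 46 against 51 and 58 counts in MOLT-4 (ACBI-1 against DMSO) and 78 and 60 against 75 and 57 in DND-41, log2 fold changes of 0.01 ± 0.23 and 0.05 ± 0.22. Over the 15 H2B genes the sum was 27.5 ± 0.76 CPM with ACBI-1 and 27.8 ± 0.575 CPM with DMSO in MOLT-4, and 33.7 ± 4.17 CPM with ACBI-1 and 33.5 ± 2.45 CPM with DMSO in DND-41.

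**Figure D3:**
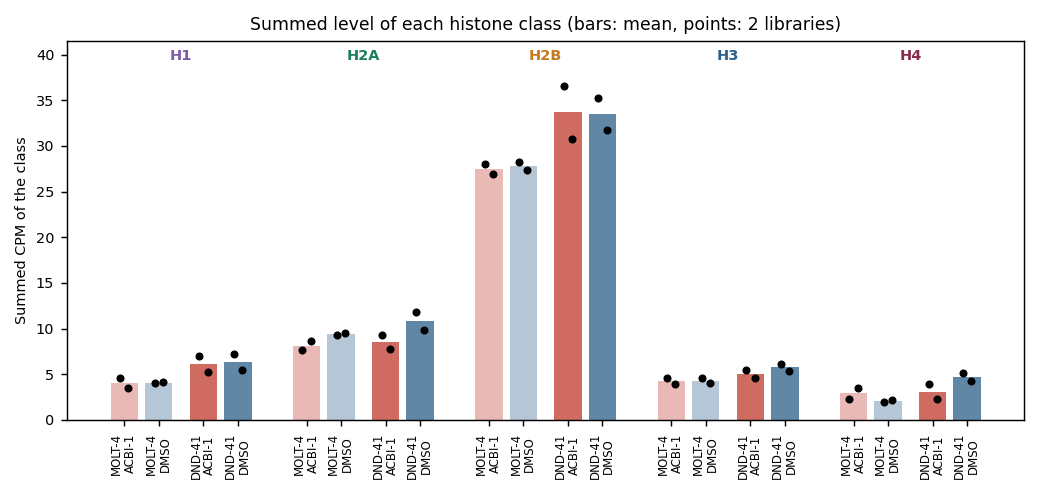
Summed CPM of the histone genes of each class in the 4 groups, as the mean (bar) and the 2 libraries (points), from an axis that starts at 0. The H2B sum, over 15 of the 38 genes, is the highest in each group, the H2A points with ACBI-1 lie below those with DMSO in both lines, and the H4 points with ACBI-1 lie above those with DMSO in MOLT-4 and below them in DND-41.

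Among the clustered genes, the H3 and H4 classes held the 3 genes that were called with ACBI-1. HIST1H3F in DND-41 and HIST1H3J in MOLT-4 passed the filter on low counts only through the group where they were higher. These calls are therefore not independent of that filter. HIST1H3F and HIST1H3J lie under the mean of 1 CPM set for naming a gene and were named after their values were seen. HIST1H3F, an H3 gene, had 3 and 6 counts with ACBI-1 and 16 and 14 with DMSO in DND-41. It fell by 1.73 ± 0.50 on the log2 scale (adjusted p = 0.0123, edgeR), with both ACBI-1 libraries below both DMSO libraries. The call was lost without DND-41 ACBI-1 replicate 1 (-1.36, adjusted p = 0.0821), DND-41 DMSO replicate 1 (-1.65, adjusted p = 0.118) or DND-41 DMSO replicate 2 (-1.81, adjusted p = 0.0664, all edgeR). In MOLT-4 it had 8 and 15 counts with ACBI-1 and 8 and 18 with DMSO, a log2 fold change of -0.09 ± 0.46.

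HIST1H4I, an H4 gene, had 13 and 11 counts with ACBI-1 and 30 and 20 with DMSO in DND-41, and 6 and 12 against 6 and 7 in MOLT-4, where it was under the filter. In DND-41 it fell by 1.07 ± 0.38 on the log2 scale (adjusted p = 0.0325, edgeR). The groups did not overlap, but the call was lost without DND-41 ACBI-1 replicate 2 (-0.93, adjusted p = 0.117, edgeR) or DND-41 DMSO replicate 1 (-0.77, adjusted p = 0.357, edgeR). HIST1H3J, an H3 gene, had 14 and 13 counts with ACBI-1 and 5 and 5 with DMSO in MOLT-4, and 9 and 12 against 10 and 8 in DND-41, where it was under the filter. In MOLT-4 it rose by 1.49 ± 0.46 (adjusted p = 0.0133, edgeR). Leaving out any 1 of the 4 MOLT-4 libraries, replicate 2 among them, ended the call, with adjusted p from 0.0879 to 0.127 (edgeR), while the log2 fold change was 1.45 to 1.53. HIST1H3J overlaps HIST1H2AM in GENCODE 29, and 36.5% of its 100-base windows also occur in HIST1H2AM, so its counts are uncertain. Over the 38 genes, 10 had a 100-base window that occurs in another histone gene, and in HIST1H4K all did.

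Of the other H3 genes, HIST1H3D had 16 and 11 against 10 and 16 counts in MOLT-4 (ACBI-1 against DMSO) and 27 and 21 against 28 and 18 in DND-41, with overlapping groups. HIST1H3H had 11 and 12 counts with ACBI-1 and 27 and 14 with DMSO in MOLT-4, which did not overlap, a log2 fold change of -0.76 ± 0.41 (adjusted p = 0.146, edgeR), which passed without MOLT-4 DMSO replicate 2 (-1.18, adjusted p = 0.0432, edgeR). In DND-41 it had 21 and 16 counts with ACBI-1 and 22 and 14 with DMSO, a log2 fold change of 0.02 ± 0.37. HIST1H4H had 13 and 20 counts with ACBI-1 and 7 and 12 with DMSO in MOLT-4 (0.87 ± 0.42, adjusted p = 0.106, edgeR) and 33 and 18 against 29 and 36 in DND-41 (-0.37 ± 0.34, adjusted p = 0.409, edgeR). Its ACBI-1 libraries lay above those with DMSO in MOLT-4 and overlapped them in DND-41. The sum of the 5 H4 genes was 2.90 ± 0.806 CPM with ACBI-1 and 2.06 ± 0.172 CPM with DMSO in MOLT-4, against 3.10 ± 1.16 CPM with ACBI-1 and 4.74 ± 0.616 CPM with DMSO in DND-41, so the libraries separated in opposite directions. The sum of the 8 H3 genes was 4.26 ± 0.492 CPM with ACBI-1 and 4.30 ± 0.384 CPM with DMSO in MOLT-4, and 5.01 ± 0.626 CPM with ACBI-1 and 5.74 ± 0.468 CPM with DMSO in DND-41. The sum of the 3 H1 genes was 4.06 ± 0.764 CPM with ACBI-1 and 4.08 ± 0.0578 CPM with DMSO in MOLT-4, and 6.14 ± 1.26 CPM with ACBI-1 and 6.31 ± 1.21 CPM with DMSO in DND-41.

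Over all members tested, 5 of 26 lay wholly above and 5 wholly below their DMSO libraries in MOLT-4, against 36.0% and 35.8% of all genes tested there. In DND-41 it was 1 above and 7 below of 29, against 33.4% and 36.2% of all genes. The direct test of the difference between lines called 0 of 37 histone genes, while 13.3% of 15498 genes were called, 7.18% higher and 6.17% lower in MOLT-4. By level the 0 calls were among 22 genes under 1 CPM, 14 from 1 to under 5 CPM and 1 at 5 CPM or more, where 1.23%, 4.94% and 18.5% of all genes were called. With DESeq2 0 were called, 30 of the 37 having no adjusted p, and 0 had an unadjusted p under 0.05. Of all 15498 genes, DESeq2 called 782 higher and 716 lower. Among the 33 with counts in both lines the differences (MOLT-4 minus DND-41) ran from -1.04 to 1.65 on the log2 scale with a median SE of 0.65, and 3 had an unadjusted p under 0.05 with edgeR. These were HIST1H4I (1.63 ± 0.67), HIST1H3F (1.65 ± 0.75) and HIST1H4H (1.25 ± 0.59), and their adjusted p-values were 0.129, 0.17 and 0.192 (edgeR).

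Between the lines without ACBI-1, more histone genes were called than for treatment. In the DMSO libraries, 4 of 37 histone genes tested were higher in MOLT-4 and 14 were lower, against 33.2% higher and 30.7% lower among 15498 genes (63.8% called in all). The median log2 difference was -0.73 over the 37 genes, also with genes at 0 set to their bound, and 0.01 over all genes. By level 9 of 22 were called under 1 CPM, 9 of 14 from 1 to under 5 CPM and 0 of 1 at 5 CPM or more, against 47.7%, 60.8% and 68.4% of all genes. The 4 higher genes were those of chromosome 1 that had 0 counts in all 4 DND-41 libraries. They met the count minimum through MOLT-4 libraries alone, so their direction was tied to the rule that kept them. All were named after their values were seen. HIST2H2BE, an H2B gene, had 38 and 34 counts in ACBI-1 and 43 and 34 in DMSO libraries of MOLT-4. HIST2H2AC, an H2A gene, had 51 and 32 in ACBI-1 and 39 and 39 in DMSO libraries. HIST3H2A, an H2A gene of the other chromosome 1 cluster, had 27 and 38 in ACBI-1 and 43 and 37 in DMSO libraries, and HIST3H2BA had 13 and 8 against 9 and 12.

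Each of the 4 read 0 in the ACBI-1 and the DMSO libraries of DND-41, where 3 counts allow a level of up to 0.137 to 0.145 CPM. Against a floor of 3 counts per DND-41 DMSO library, the DMSO level in MOLT-4 was at least 14.3-fold higher for HIST3H2A (2.05 ± 0.296 CPM), at least 13.9-fold for HIST2H2AC (1.99 ± 0.0775 CPM), at least 13.7-fold for HIST2H2BE (1.97 ± 0.402 CPM) and at least 3.72-fold for HIST3H2BA (0.534 ± 0.0875 CPM; SD, n = 2 libraries). Having 0 counts in all DND-41 and at least 10 in all MOLT-4 libraries was found for 3 of the 38 histone genes and for 1.41% of 15617 genes with at least 10 counts in 2 libraries. The converse, 0 in MOLT-4 and at least 10 in DND-41, was found for 0 of the 38 and for 0.506% of those genes. Under the count minimum, HIST2H2AB had 6 and 6 counts with ACBI-1 and 3 and 7 with DMSO in MOLT-4, HIST3H2BB had 3 and 3 against 3 and 1, and both had 0 in all DND-41 libraries. Within MOLT-4 none of the 3 with the most counts was called with ACBI-1, at -0.02 ± 0.27 for HIST2H2BE, 0.16 ± 0.27 for HIST2H2AC and -0.22 ± 0.28 for HIST3H2A on the log2 scale.

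In the HIST3 cluster every histone gene read 0 in DND-41, while in the HIST2 cluster some had counts there. HIST2H2BF, HIST2H2BC and HIST2H2BD, in the same HIST2 cluster, had counts in all 8 libraries, from 2 to 13 in MOLT-4 and from 5 to 34 in DND-41. BOLA1 and SV2A, the 2 genes next to the HIST2 cluster on one side, had 267 to 425 and 1182 to 1843 counts in MOLT-4 and 242 to 313 and 1213 to 1579 in DND-41. TRIM11 and RNF187, beside the HIST3 cluster, had 772 to 1223 and 3782 to 4966 counts in MOLT-4 and 1041 to 1142 and 5572 to 6815 in DND-41. RHOU, the next gene out, had 2740 to 3904 counts in MOLT-4 and 14 to 65 in DND-41. FCGR1A and PPIAL4C, on the far side of the HIST2 cluster, were at or near 0 in both lines. Near-identical copies limit part of this cluster, since all 100-base windows of HIST2H2AA3, HIST2H3A and HIST2H3C occur in another gene, whereas HIST2H2BE shares 2.63% and HIST2H2AC 17.2% of theirs and HIST3H2A none.

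**Figure D4:**
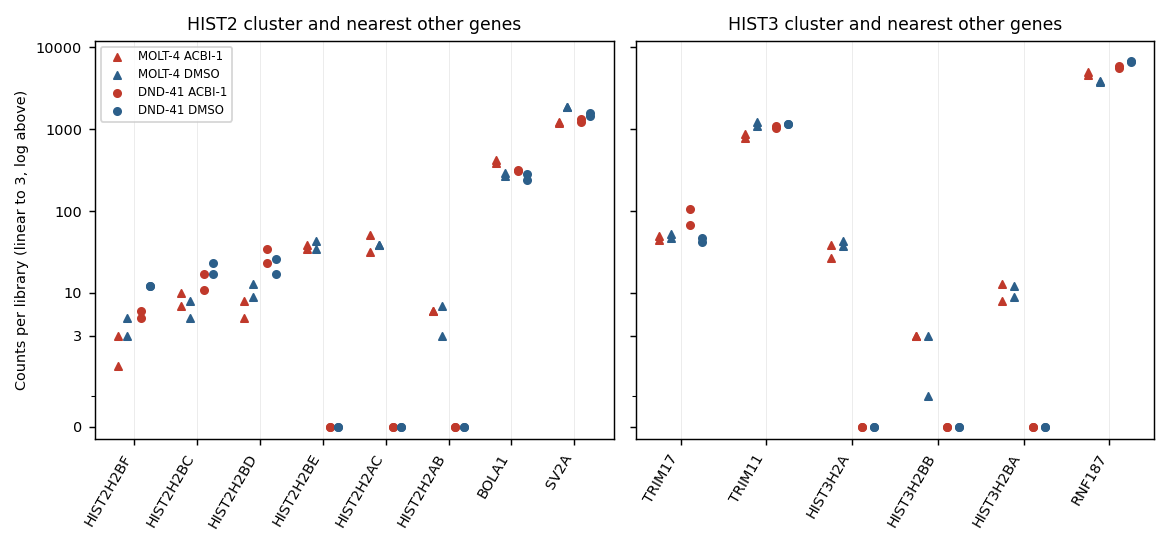
Counts per library of histone genes of the HIST2 cluster (left) and the HIST3 cluster (right) with the nearest other genes, on an axis linear to 3 and logarithmic above. MOLT-4 libraries are triangles and DND-41 libraries circles, ACBI-1 is red and DMSO blue; HIST2H2BE, HIST2H2AC, HIST2H2AB and the 3 HIST3 genes are at 0 in DND-41 while BOLA1, SV2A, TRIM17, TRIM11 and RNF187 are counted in both lines.

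HIST2H2BE and HIST2H2AC start 236 bases apart on opposite strands in RefSeq, and 11 such divergent H2A and H2B pairs were found among the histone genes, of which 5 had both genes among the 38. HIST3H2A and HIST3H2BB start 230 bases apart. The 250 bases before the start were taken from RefSeq on GRCh38.p14, where 36 of the 38 genes were matched and 33 had a promoter, and 3 motifs were searched on both strands: ATTTGCAT (the octamer bound by POU2F1 and its relatives), CCAAT and TATAA. ATTTGCAT was in 42.4% of the 33 promoters and in 1.66% of 27305 promoters, CCAAT in 87.9% and 33.0%, and TATAA in 93.9% and 19.6%. ATTTGCAT was in 9 of 12 H2B, 4 of 7 H2A and 1 of 6 H3 promoters and in 0 of 3 H1 and 0 of 5 H4 promoters. The H3 promoter was that of HIST1H3D, whose RefSeq window is the same as that of the H2A gene HIST1H2AD. It overlaps the window of HIST1H2BF. The windows of HIST1H2AC and HIST1H2BC, HIST1H2AG and HIST1H2BJ, and HIST2H2AC and HIST2H2BE also overlap. In each case the same ATTTGCAT site counts for 2 genes, so 42.4% is not a share of separate sites. Printed are the shared promoter of HIST2H2BE and HIST2H2AC at chr1:149886683-149886932 and that of HIST3H2A at chr1:228457874-228458123, as the genes at 0 in DND-41, and that of HIST1H2BK at chr6:27146859-27147108, as the most counted gene. HIST2H2BE, HIST3H2A and HIST1H2BK are minus-strand genes, and each sequence runs 5′ to 3′ toward that gene's start; HIST2H2AC is on the plus strand and starts the other way. Capitals mark motif matches on either strand; TATAA and its reverse complement overlap in some of them.
HIST2H2BE: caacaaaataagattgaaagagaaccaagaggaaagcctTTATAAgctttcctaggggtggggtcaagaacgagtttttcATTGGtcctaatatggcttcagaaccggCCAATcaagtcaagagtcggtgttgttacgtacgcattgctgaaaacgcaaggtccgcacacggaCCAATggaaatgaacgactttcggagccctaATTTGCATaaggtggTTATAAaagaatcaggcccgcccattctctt
HIST3H2A: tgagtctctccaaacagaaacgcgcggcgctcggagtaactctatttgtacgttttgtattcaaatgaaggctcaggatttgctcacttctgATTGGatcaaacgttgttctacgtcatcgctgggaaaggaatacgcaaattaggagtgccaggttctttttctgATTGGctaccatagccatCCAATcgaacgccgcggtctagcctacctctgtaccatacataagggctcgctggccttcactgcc
HIST1H2BK: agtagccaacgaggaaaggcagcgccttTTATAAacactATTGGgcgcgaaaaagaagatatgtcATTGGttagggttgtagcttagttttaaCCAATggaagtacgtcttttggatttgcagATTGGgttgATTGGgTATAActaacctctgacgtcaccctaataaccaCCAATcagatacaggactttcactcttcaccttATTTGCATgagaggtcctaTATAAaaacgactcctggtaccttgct
HIST2H2BE and HIST1H2BK each hold ATTTGCAT once, close to the start site, and HIST3H2A holds neither ATTTGCAT nor TATAA in this window. HIST1H2BK, with the same 3 motifs as HIST2H2BE, had 316 to 400 counts in DND-41, where HIST2H2BE had 0.

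The 14 genes lower in MOLT-4 with DMSO were in all 5 classes, with 1 H1, 3 H2A, 5 H2B, 2 H3 and 3 H4 genes. Of these, HIST1H2AE, HIST1H2AK, HIST1H3C, HIST1H3G, HIST2H2BF and HIST4H4 reached 10 counts only in DND-41 libraries. The rule that kept them thus favoured this direction. HIST1H1C had 49 and 53 counts in MOLT-4 DMSO and 123 and 92 in DND-41 DMSO libraries, a log2 difference of -0.98 ± 0.20 (adjusted p = 0.000294, edgeR). HIST1H2AC had 35 and 34 counts in MOLT-4 DMSO and 120 and 84 in DND-41 DMSO libraries, which was -1.47 ± 0.25 (adjusted p = 3.86e-05, edgeR). HIST1H4H, with 7 and 12 counts in MOLT-4 DMSO and 29 and 36 in DND-41 DMSO libraries, was lower by -1.67 ± 0.42 (adjusted p = 0.00201, edgeR), and HIST1H4I, with 6 and 7 against 30 and 20, by -1.83 ± 0.45 (adjusted p = 0.00155, edgeR). HIST1H2BK was not called, at -0.15 ± 0.10 (adjusted p = 0.206, edgeR), nor was HIST1H2BH, at -0.18 ± 0.22. With DESeq2, 13 of the 37 were called, 4 higher and 9 lower. Of all 15498 genes, DESeq2 called 4521 higher and 4065 lower.

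The replication-independent histone genes, outside the clusters, fell in part in both lines. Of 12 listed, 9 passed the filter, and with ACBI-1 0 were higher and 7 lower in MOLT-4 (median log2 -0.35) and 0 were higher and 6 lower in DND-41 (median -0.32). Over all genes tested 24.4% were lower in MOLT-4 and 23.2% in DND-41, and 52.0% and 51.0% were called in either direction at 5 CPM or more, where these 9 genes lie. H1F0, the linker histone of slowly dividing and differentiated cells, was at 27.1 and 24.7 CPM with ACBI-1 and 86.2 and 79.6 CPM with DMSO in MOLT-4, and at 124 and 116 CPM with ACBI-1 and 266 and 286 CPM with DMSO in DND-41. It fell by 1.68 ± 0.07 on the log2 scale in MOLT-4 (adjusted p = 6.47e-13, edgeR) and by 1.19 ± 0.06 in DND-41 (adjusted p = 2.19e-09, edgeR). H3F3B, one of the genes for variant H3.3, was at 273 and 268 CPM with ACBI-1 and 379 and 390 CPM with DMSO in MOLT-4, and at 138 and 136 CPM with ACBI-1 and 264 and 268 CPM with DMSO in DND-41. It fell by 0.51 ± 0.05 in MOLT-4 (adjusted p = 2.79e-07, edgeR) and by 0.95 ± 0.06 in DND-41 (adjusted p = 7.67e-09, edgeR). H3F3A, which encodes the same protein, had log2 fold changes of -0.08 ± 0.06 in MOLT-4 and 0.05 ± 0.08 in DND-41 and was not called. H1FX, H2AFY, H2AFX and H2AFZ fell in both lines, by 0.17 to 0.71 in MOLT-4 and by 0.23 to 0.83 in DND-41, and CENPA, the centromeric H3 variant, fell by 0.25 ± 0.08 in MOLT-4 but was not called in DND-41.

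**Figure D5:**
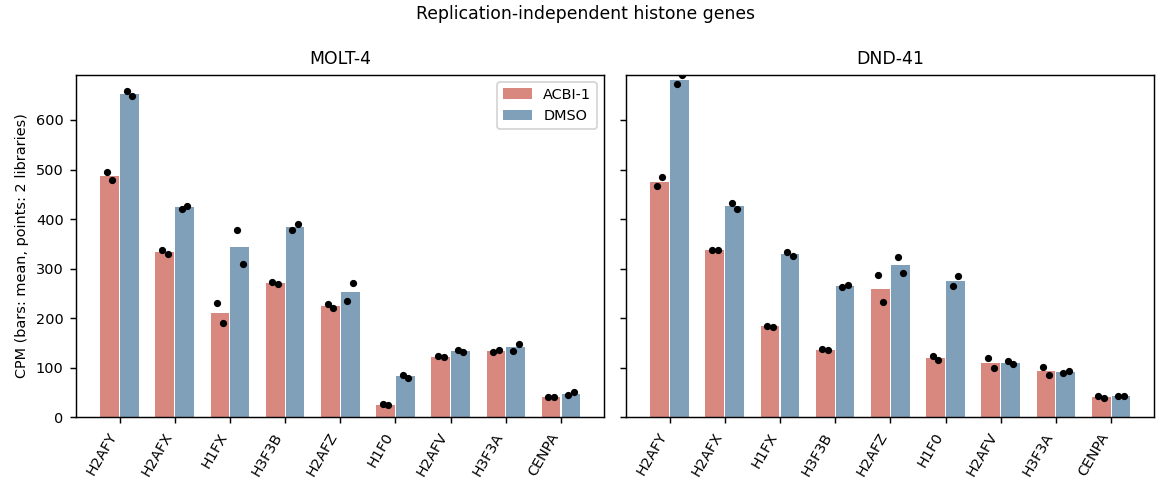
Levels of the 9 replication-independent histone genes that passed the filter, in CPM, as the mean (bars) and the 2 libraries (points), MOLT-4 on the left and DND-41 on the right, ACBI-1 red and DMSO blue. H1F0 is at 24.7 and 27.1 CPM with ACBI-1 in MOLT-4, and H3F3B is lower with ACBI-1 in both lines, while H3F3A is about level.

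The precision differs between these groups, since H1F0 had 449 to 1643 counts a library in MOLT-4 and 2533 to 5917 in DND-41. The 7 clustered genes for which polyadenylated transcripts have been described, among them HIST1H1C, HIST1H2AC, HIST1H2BK and HIST2H2BE, gave 0 calls in either direction in either line, of 7 tested in MOLT-4 (median -0.03) and 6 in DND-41 (median -0.01). Over all genes from 1 to under 5 CPM, where 4 of the 7 lie, 32.8% were called in MOLT-4 and 28.2% in DND-41.

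Among factors that transcribe histone genes or process their mRNA, the called ones were all higher with ACBI-1. Of 18 listed and tested, 7 were higher and 0 lower in MOLT-4 (median log2 0.13) and 8 were higher and 0 lower in DND-41 (median 0.16). Over all genes tested 20.7% were higher and 24.4% lower in MOLT-4, and 20.0% were higher and 23.2% lower in DND-41. In either direction 45.1% of all genes were called in MOLT-4 and 43.2% in DND-41, so the number of factors called does not stand out from the background. LSM11, a protein of the U7 particle that cuts histone pre-mRNA, was at 18.8 and 17.6 CPM with ACBI-1 and 12.4 and 11.9 CPM with DMSO in MOLT-4 and rose by 0.58 ± 0.10 (adjusted p = 8.13e-05, edgeR). COIL, which encodes coilin of Cajal bodies, rose by 0.39 ± 0.07 in MOLT-4 (adjusted p = 0.000194, edgeR) and by 0.49 ± 0.07 in DND-41 (adjusted p = 8.88e-05, edgeR). POU2F1, the octamer-binding factor, averaged 53.2 ± 4.47 CPM with ACBI-1 and 42.3 ± 1.36 CPM with DMSO in MOLT-4 (SD, n = 2 libraries each), and was at 76.7 and 95.6 CPM with ACBI-1 and 46.6 and 48.9 CPM with DMSO in DND-41. It rose by 0.32 ± 0.07 in MOLT-4 (adjusted p = 0.00133, edgeR) and by 0.87 ± 0.09 in DND-41 (adjusted p = 2.08e-06, edgeR). SLBP, the stem-loop binding protein, rose by 0.19 ± 0.05 in MOLT-4 (adjusted p = 0.00468, edgeR) and was at 0.07 ± 0.06 in DND-41 (adjusted p = 0.423, edgeR). NPAT, the activator of histone transcription in S phase, was not called, at -0.12 ± 0.07 in MOLT-4 and 0.08 ± 0.07 in DND-41.

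Of 18 histone chaperones, 6 were higher and 3 lower in MOLT-4 and 4 were higher and 2 lower in DND-41. At 5 CPM or more, where 17 of the 18 lie, 52.0% of all genes were called in MOLT-4 and 51.0% in DND-41, so their number called does not stand out either. HIRA and UBN1, of the complex that deposits H3.3, rose by 0.43 ± 0.07 and 0.28 ± 0.05 in MOLT-4 (adjusted p = 7.35e-05 and 0.000213, edgeR), and CABIN1, of the same complex, and ATRX rose by 0.34 ± 0.06 and 0.54 ± 0.08 in DND-41 (adjusted p = 0.000346 and 9.39e-05, edgeR). SSRP1, a subunit of the FACT chaperone, fell by 0.26 ± 0.06 in MOLT-4 and by 0.24 ± 0.06 in DND-41 (adjusted p = 0.00062 and 0.00339, edgeR). ASF1A fell by 0.47 ± 0.07 in MOLT-4 and ASF1B, which serves replication, by 0.17 ± 0.06 in DND-41 (adjusted p = 1.35e-05 and 0.0342, edgeR).

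Genes of S-phase entry and replication gave 11 higher and 2 lower of 19 in MOLT-4 (median log2 0.14) and 6 higher and 2 lower in DND-41 (median 0.14). Over all genes tested 20.7% were higher and 24.4% lower in MOLT-4, and 20.0% were higher and 23.2% lower in DND-41. CCNE2, cyclin E2, was at 37.9 and 40.0 CPM with ACBI-1 and 22.6 and 22.9 CPM with DMSO in MOLT-4 and rose by 0.77 ± 0.07 (adjusted p = 4.62e-08, edgeR). RRM2, of the enzyme that makes deoxynucleotides, rose by 0.42 ± 0.05 in MOLT-4 (adjusted p = 3.42e-06, edgeR) and by 0.37 ± 0.06 in DND-41 (adjusted p = 9.74e-05, edgeR), and MCM5, of the replicative helicase, by 0.41 ± 0.06 in DND-41 (adjusted p = 6.11e-05, edgeR). CCNA2, cyclin A2, fell by 0.24 ± 0.05 in MOLT-4 and by 0.29 ± 0.06 in DND-41 (adjusted p = 0.000839 and 0.00143, edgeR), as did TYMS, thymidylate synthase, by 0.28 ± 0.05 and 0.20 ± 0.06 (adjusted p = 0.000354 and 0.0115, edgeR). The share of cells in S phase was not measured.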

How the data were processed

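Total RNA was sequenced as stranded paired-end reads of 100 bases, per the labels' protocols. The submitters' processing notes name STAR 2.5.2a, featureCounts and the hg19 build, with no order. The deposited counts are whole numbers per gene, not normalized. Annotation, strand setting, RNA selection and the handling of multi-mapping reads: not given in the sources used here. From the authors come 2 further deposited tables with log2 fold changes, p-values and adjusted p-values and 2 score columns (mean of normalized counts and test statistic), per the file headers, made with DESeq2 1.12.4 per the submitters' processing notes. The direction of their contrast is not stated, so only the number of adjusted p-values under 0.05 is used.

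The members and gene lists were chosen with earlier results of these data known. Counts of both lines were joined by gene identifier. Each line was fitted with edgeR 4.0.16 in R 4.3.3 (filterByExpr, minimum count 10, TMM, quasi-likelihood F test, treatment only). The difference between lines and the DMSO comparison of lines used all 8 libraries. Adjusted p-values follow Benjamini and Hochberg over all genes tested, threshold 0.05, and SE is the absolute log2 fold change over the square root of F. Levels are CPM over effective library sizes across 8 libraries, given as mean ± SD. The level ranges for shares of called genes use instead the average level that edgeR gives in each fit. A gene near a bound can therefore fall in another range than its CPM would give. Floors (3 counts) cover counting error only, while the SE also takes in the estimated spread between libraries. Named were the 2 members of each class with the highest mean CPM and members called at a mean of at least 1 CPM. Members at the edge of the count minimum were also named, with up to 2 rises and 2 falls per list and line. Other genes given fall outside this rule and count as named after their values were seen. Among them are H3F3A, H1FX, H2AFY, H2AFX, H2AFZ, CENPA, SLBP and NPAT. The scripts were tested on simulated counts. Alternatives were other scaling (RLE size factors, library size alone), no or a stricter filter (minimum 50), DESeq2 1.42.0, 1 fit over all 8 libraries, a replicate block, leaving out mitochondrially encoded genes, leaving out the most counted histone gene, and leaving out each library (a library left alone in its group takes the spread of the other groups). Stem-loops came from GENCODE 29 transcripts and promoters from RefSeq, by gene symbol and Entrez ID. Tables and figures were made with Python 3.11.15, pandas 2.3.3, numpy 2.4.6 and matplotlib 3.10.9.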

Additional observations from a re-analysis of the deposited data

Results flagged for a closer look

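The effect of ACBI-1 differed between the lines, by an interaction term fitted to all 8 libraries (edgeR quasi-likelihood test), for several genes named above. The 6 given here include no clustered histone gene. Of the 7 T-lineage markers, 4 were also called, all lower in MOLT-4, against 6.17% of all genes tested, and are not given here. The difference, MOLT-4 minus DND-41 on the log2 scale, was -0.47 ± 0.10 for H1F0 (adjusted p = 0.00246), which fell in both lines. It was 0.46 ± 0.08 for H3F3B (adjusted p = 0.000345), which also fell in both. It was -0.52 ± 0.12 for POU2F1 (adjusted p = 0.0074), which rose in both. It was -0.29 ± 0.09 for ASF1A (adjusted p = 0.0423), at -0.47 ± 0.07 in MOLT-4 and -0.16 ± 0.07 in DND-41. It was 0.53 ± 0.11 for CCNE2 (adjusted p = 0.00205), at 0.77 ± 0.07 in MOLT-4 and 0.26 ± 0.08 in DND-41. It was 0.35 ± 0.11 for SMARCA2 (adjusted p = 0.0346), at 0.14 ± 0.08 in MOLT-4 and -0.19 ± 0.07 in DND-41.

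The summed level of the 5 H4 genes was flagged because both ACBI-1 libraries lay above both DMSO libraries in MOLT-4 and below both in DND-41. Among all single genes tested, 36.0% lay wholly above in MOLT-4 and 36.2% wholly below in DND-41. The sums of all 5 classes were looked at, and the H4 sum rests on 37 to 109 counts per library. It includes HIST1H4K, whose 100-base windows all occur in HIST1H4J. The log2 ratio of group means was 0.49 in MOLT-4 and -0.61 in DND-41, a difference of 1.10. That difference was not tested, and among the single H4 genes 0 were called for it.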

How the results depend on the processing

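Clustered histone genes gave few calls with ACBI-1 under every setting tried. In MOLT-4 the number higher was 1, and 0 with a stricter filter (3 genes tested), 0 with DESeq2 and 0 in each fit with 1 library left out; the number lower was 0, and 2 with library size alone, 2 with the replicate block and 0 to 2 when 1 library was left out. In DND-41 the number higher was 0, and 1 with the block and 0 to 1 with 1 library left out; the number lower was 2, and 0 with a stricter filter (7 genes tested), 0 with DESeq2, 4 with the block and 1 to 4 with 1 library left out. For the difference between lines, 0 were higher in MOLT-4, and 0 to 1 with 1 library left out. For DMSO cells, 4 were higher in MOLT-4, and 0 with a stricter filter (7 genes tested, none at 0 counts in DND-41 among them). The number lower was 14, and 4 with a stricter filter, 9 with DESeq2 and 9 to 13 with 1 library left out, 9 being without DND-41 DMSO replicate 1 or MOLT-4 DMSO replicate 2. The smaller counts under the stricter filter follow from fewer genes tested; for the other settings the cause was not tested. Over the results of single histone genes and settings, 43 lost a call (32 of them for DMSO cells), 11 gained one and 0 called values changed sign.

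Over all genes tested, same-numbered replicates deviated together with r = 0.232 in MOLT-4 and 0.0946 in DND-41, over 2 pairs each. The numbers were therefore not taken as pairs, although the histone genes of DND-41 shared a replicate shift. Their summed level was 62.3 and 50.6 CPM with ACBI-1 and 65.4 and 56.7 CPM with DMSO (replicates 1 and 2). Replicate 1 was the higher in each class, and the cause of the shift was not tested. The block called HIST1H2AC (-0.52, adjusted p = 0.0151) and HIST1H2BK (0.23, adjusted p = 0.043) in DND-41 and HIST1H2AG (-0.62, adjusted p = 0.0316, all edgeR) in MOLT-4. The replicate block left 1 histone gene higher in MOLT-4 and, for DMSO cells, 4 higher and 13 lower in MOLT-4.

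All genes higher in MOLT-4 with ACBI-1 numbered 2948, and 1781 with library size alone and 1962 with DESeq2. In DND-41 they numbered 2807, and 1871 with DESeq2 and 1745 to 3044 with 1 library left out. For the difference between lines 1112 were higher in MOLT-4, and 499 with library size alone and 699 to 1207 with 1 library left out, and 956 were lower, and 621 to 989 with 1 left out. Library size alone shifted the median log2 value of all genes by -0.12 for that difference and by -0.10 for DMSO cells. The summed histone level without HIST1H2BK was 31.7 CPM with ACBI-1 and 33.8 CPM with DMSO in MOLT-4, and 38.5 CPM with ACBI-1 and 45.6 CPM with DMSO in DND-41. By library size alone the sum over all 38 genes was 42.9 CPM with ACBI-1 and 46.3 CPM with DMSO in MOLT-4. By effective library size the same sum was 46.8 ± 0.526 CPM and 47.6 ± 0.625 CPM (SD, n = 2). Low counts limit the clustered genes, whose log2 fold changes had a median SE of 0.40 in MOLT-4 and 0.38 in DND-41.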
